A study of Mus musculus with 8 samples.

Results

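The genes described here are 10 imprinted genes, namely Meg3, Peg3, H19, Igf2, Dlk1, Mest, Plagl1, Cdkn1c, Grb10 and Ndn. They were taken by symbol from a deposited table of 22609 genes, and all 10 were in it. Meg3 and Peg3 were chosen by their normalized read counts, which were already known to differ widely between Het and WT libraries, and the other 8 are imprinted genes chosen beside them. The Het and WT values of the 10 are therefore given as a description, with standard errors. The calls they got in the fit across all genes are counted beside the share of all genes called. Those calls, and the calls in alternative fits, support nothing. Messenger RNA was sequenced from naive CD8 T cells, lymphocytes that have not yet met their antigen, out of the spleens of C57BL/6 mice aged 3 months. There were 4 Brca1 heterozygous (Het) libraries, numbered 31, 53, 56 and 139 in the sample titles, and 4 Brca1 wild type (WT) libraries, numbered 45, 54, 57 and 65. Both genotypes share the strain, tissue and age. The labels do not say how the Brca1 allele was made, whether each library came from a separate mouse, or which sex, litter or day it came from, so errors measure the spread between these libraries, which may be technical.

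An imprinted gene is transcribed mainly from the copy inherited from 1 parent, usually under the control of a methylation mark set in the egg or the sperm. Many imprinted genes lie in clusters ruled by a shared control region, and many act on growth before birth. In adult mice several are best known from brain, pituitary, muscle and connective tissue, and a few are known to hold blood stem cells in quiescence. Values per gene do not tell the 2 parental copies apart, so imprinting itself was not measured.

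The promoters of the genes with the largest differences are shown with their CpG sites, the kind of site at which imprinting marks are written. Each covers 250 bases before to 50 bases after the transcription start in RefSeq (build GRCm38.p6), with every CpG in capitals. RefSeq gives 2 starts for Meg3, and the window of the upstream one, at chr12:109540746-109541045 on the + strand, is shown. The Peg3 window is at chr7:6730370-6730669 on the - strand.
Meg3: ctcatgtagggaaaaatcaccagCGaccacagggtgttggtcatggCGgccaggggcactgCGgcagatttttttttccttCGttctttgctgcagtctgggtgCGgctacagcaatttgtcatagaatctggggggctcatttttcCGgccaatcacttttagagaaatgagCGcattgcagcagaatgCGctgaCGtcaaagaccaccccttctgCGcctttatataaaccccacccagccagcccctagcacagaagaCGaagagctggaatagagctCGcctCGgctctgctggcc
Peg3: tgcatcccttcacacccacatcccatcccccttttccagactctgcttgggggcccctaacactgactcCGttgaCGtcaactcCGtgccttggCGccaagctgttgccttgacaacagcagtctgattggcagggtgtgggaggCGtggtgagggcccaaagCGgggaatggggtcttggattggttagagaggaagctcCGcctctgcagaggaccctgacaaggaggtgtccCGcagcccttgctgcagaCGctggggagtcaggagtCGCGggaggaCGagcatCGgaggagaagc
Both windows shown held 13 CpG sites, against a median of 7 over the 32851 promoter windows in the table. The window of the other Meg3 start, at chr12:109545148-109545447, held 1 CpG site. The hexamer TGCCGC, which the imprint-keeping protein Zfp57 is known to bind when methylated, was searched on both strands. It occurred once in the Meg3 window shown, and neither in that of the other Meg3 start nor in the Peg3 window, and 11.6% of all windows held it. The motif GCCATNTT, known for the factor Yy1, was searched likewise and was in none of these windows, while 6.05% of all windows held it. RefSeq windows were at hand for 8 of the 10 genes, without H19 and Cdkn1c. A match of letters is a description of the window. Whether the windows lie within the control regions of their clusters was not examined.

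Every library carried T cell transcripts. Cd8a, which encodes part of the CD8 receptor, ranged over 45657.9 to 50265.2 in Het libraries and 40591 to 46876.7 in WT libraries (normalized read counts). Transcripts of other tissues differed between libraries as well. WT 45 and WT 54 held epidermal transcripts, with Krt5 at 1125.6 and 758.9, while no other library exceeded 51.8. Neurofilament transcripts were high in WT 54, 57 and 65 only, with Nefl between 278.6 and 388.4, while WT 45 had 6.0 and no Het library exceeded 35.7. Pituitary hormone transcripts were found in WT 45, 57 and 65, where Prl was at 3699.4, 3761 and 767.1, while WT 54 had 12.8 and no Het library exceeded 20.6. Among Het libraries, Het 56 was highest in Nefl, Krt5 and Prl. In bulk samples fewer cells of a type and less RNA per cell cannot be told apart.

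The deposited values had been brought to a shared distribution, which stretches low values differently in each library. The lowest value above 0, that of 1 read, was 0.9, 1.0, 1.9 and 1.9 in Het 31, 53, 56 and 139, and 0.2, 0.2, 0.3 and 0.2 in WT 45, 54, 57 and 65. Since each whole number of reads takes 1 value, the rank of a value among the different values of its library estimates the reads behind it. Values from 9.5 to 10.4 stood for 8 to 14 reads in Het libraries and for 17 to 24 reads in WT libraries, so small values understate WT reads relative to Het reads. Reads are not independent molecules, because copies made by PCR were not marked.

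**Figure D1:**
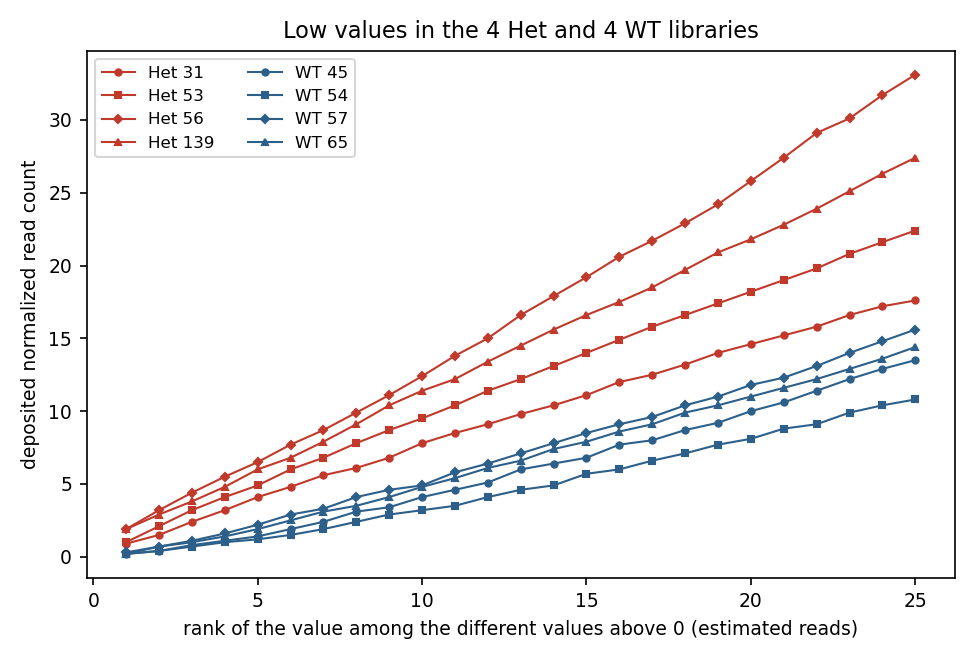
Deposited normalized read count (vertical axis) against the rank of that value among the different values above 0 of the same library (horizontal axis), for the first 25 ranks; 1 line per library, Het in red and WT in blue. The first rank lies at 0.9 to 1.9 in Het libraries and at 0.2 to 0.3 in WT libraries, and the 4 Het lines lie above the 4 WT lines at each rank shown.

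All 10 genes had a lower mean log2 level in Het than in WT libraries, but the size ranged from nearly nothing to over 5 log2 units. The genotypes did not overlap in 6 genes, namely Meg3, Peg3, Igf2, Mest, Plagl1 and Ndn, and overlapped in H19, Dlk1, Cdkn1c and Grb10. Of the 10, 9 averaged 10 or more over both genotypes and entered the fit across all genes, and Ndn, at a mean of 9.12, did not. All 10 had a WT mean of at least 10, and only Cdkn1c a Het mean of at least 10, so 8 of the 9 passed the filter through their WT values alone. In the limma fit 2 of the 9, Meg3 and Peg3, were called lower in Het at an adjusted p under 0.05, where 0.515% of the 12048 tested genes were called in either direction. Both were called without each single library in turn except WT 57, without which neither was, and neither was without WT 45 and 54 together; Igf2 was called as well without Het 56. With a minimum mean of 50 in place of 10, Meg3 was called and Peg3 was not. All 4 Het values lay below all 4 WT values in 5 of the 9, against 2.86% of tested genes. These counts, and the calls with libraries left out or with another filter, follow from how the genes were picked and are read no further.

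**Figure D2:**
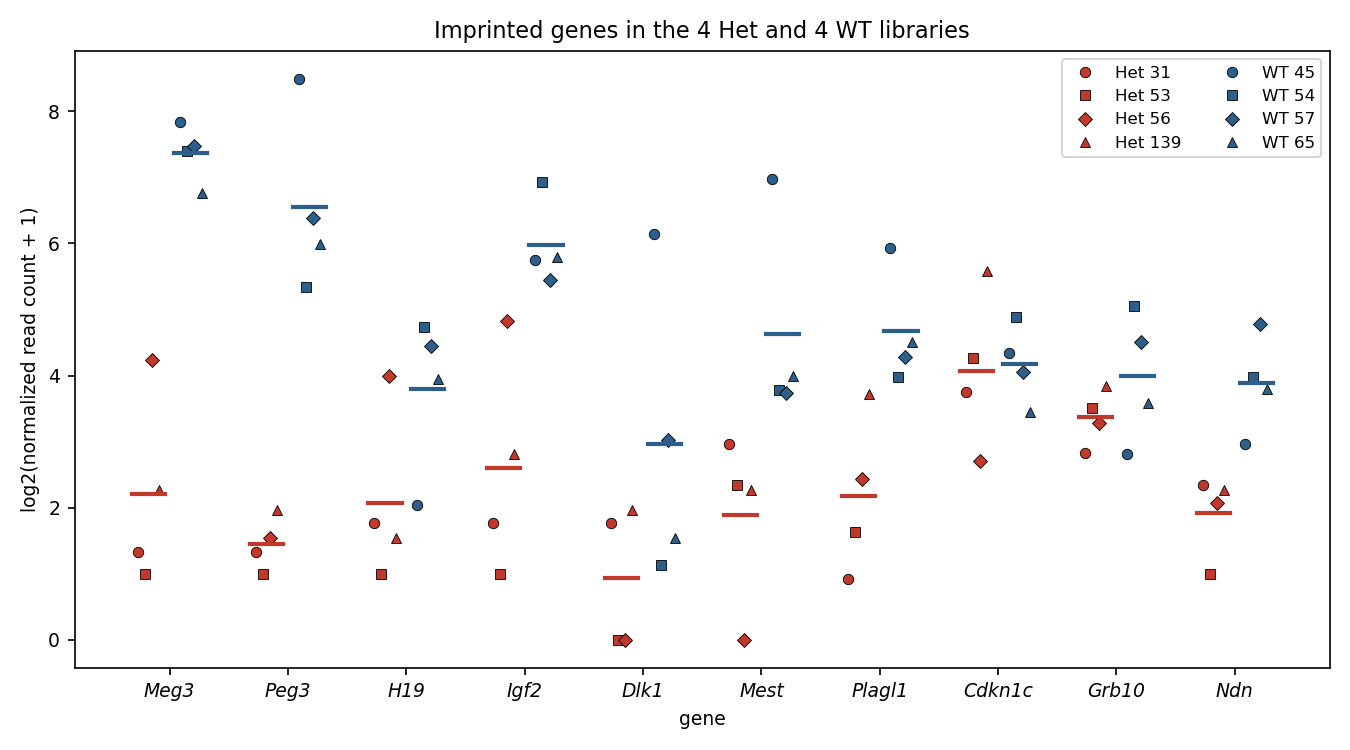
Level of each of the 10 genes, as log2 of the normalized read count plus 1 (vertical axis), in the 4 Het libraries (red, left) and the 4 WT libraries (blue, right) of each gene; each symbol is 1 library and each bar the mean of 4. Meg3 and Peg3 are separated by about 5 log2 units, Dlk1, Mest and Peg3 are highest in WT 45, and the libraries of Cdkn1c and Grb10 are mixed.

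Meg3 is a long noncoding RNA made from the maternal copy of the Dlk1-Dio3 cluster on chromosome 12. Its normalized read count was 1.5, 1.0, 17.9 and 3.8 in Het 31, 53, 56 and 139, and 228.4, 168.2, 177.3 and 107.1 in WT 45, 54, 57 and 65. Every WT library was far above every Het library, and Het 56 stood above the other Het libraries. The means were 6.05 ± 7.99 in Het and 170.25 ± 49.7 in WT (SD, n = 4 each), a difference of -5.16 on the log2(value + 1) scale (SE 0.76), or -5.84 without Het 56. The Het values rest on an estimated 2, 1, 14 and 3 reads, and the WT values on 218, 190, 190 and 137. WT 54, whose Prl and Gh were at 12.8 and 7.7, and WT 45, whose Nefl was at 6.0, both had Meg3 above 160. Another neuron transcript, Snap25, was at 78.2 in WT 45 and at 0, 0, 15.0 and 6.0 in Het 31, 53, 56 and 139. Whether transcripts of other tissues account for the Meg3 values was not tested.

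Dlk1, a membrane protein related to Notch ligands that holds back the maturing of fat cells, comes from the paternal copy of the same cluster. It was at 2.4, 0, 0 and 2.9 in Het 31, 53, 56 and 139, and at 69.9, 1.2, 7.1 and 1.9 in WT 45, 54, 57 and 65. WT 45 alone was high, and WT 54 and WT 65 lay below the upper Het values, so the genotypes overlapped. The log2 difference was -2.03 (SE 1.26), and -0.96 without WT 45. On estimated reads the order changed: Het libraries had 3, 0, 0 and 2 reads and WT libraries 80, 5, 13 and 5. Dlk1 and Meg3, neighbours on the chromosome, thus differed in pattern among WT libraries: Meg3 spanned 107.1 to 228.4, while Dlk1 spanned 1.2 to 69.9.

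The other genes around Meg3 were mixed. Rian, the noncoding RNA downstream of Meg3 that carries small nucleolar RNAs, was listed at 0 in Het 31, 53 and 139 and was at 5.5 in Het 56, against 145.3, 16.4, 20.1 and 57.7 in WT 45, 54, 57 and 65. Its log2 difference of -4.72 (SE 0.90) did not pass the limma test (adjusted p = 0.0553). Rian passed without Het 56 (adjusted p = 0.0187 by limma) and missed the threshold in each fit without another single library. Rtl1 and Mirg were at 0.2 or less in every library, and Dio3 was listed at 0 in all 8. On the other side of Dlk1, Begain, Wdr25, Wars and Slc25a47 overlapped between the genotypes, with log2 differences between -0.11 and 0.39 and limma adjusted p between 0.808 and 0.913. Of the 5 listed genes after Meg3 in the RefSeq order, 4 were microRNA genes listed at 0 in all libraries.

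Peg3 is a zinc finger protein of the paternal copy on chromosome 7, known from brain and muscle. Its normalized read count was 1.5, 1.0, 1.9 and 2.9 in Het 31, 53, 56 and 139, and 359, 39.5, 82.3 and 62.8 in WT 45, 54, 57 and 65. All Het libraries were at the level of 1 or 2 reads, and WT 45 was well above the other WT libraries. The means were 1.825 ± 0.81 in Het and 135.9 ± 149.8 in WT (SD, n = 4 each), and the log2 difference was -5.10 (SE 0.71), or -4.45 without WT 45. Unlike Meg3, Peg3 was not raised in Het 56.

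The cluster around Peg3 was nearly silent. Usp29, which shares the promoter region of Peg3, was listed at 0 in all Het libraries and was at 13.5, 1.2, 1.1 and 1.9 in WT 45, 54, 57 and 65. Zim1, on the other side and expressed from the maternal copy, was listed at 0 in all Het libraries and was at 6.0, 0.2, 0 and 1.0 in the WT libraries. Both were highest in WT 45, as Peg3 was, and both were below the filter. Apeg3, an antisense RNA of Peg3, Zim3, Aurkc, Mir3099 and the 4 olfactory receptor genes nearest on the other side were listed at 0 in all 8 libraries.

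Plagl1, a zinc finger transcription factor expressed from the paternal copy on chromosome 10, is known to regulate other imprinted genes. It was at 0.9, 2.1, 4.4 and 12.2 in Het 31, 53, 56 and 139, and at 60.1, 14.8, 18.5 and 21.7 in WT 45, 54, 57 and 65. The highest Het library, 139, lay just below the lowest WT library, 54, in value, and WT 45 was above the rest. The estimated reads were 11 in Het 139, against 31 in WT 54. The log2 difference was -2.50 (SE 0.74), or -2.96 with reads scaled between libraries.

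H19 and Igf2 share a control region on chromosome 7, where H19 is a noncoding RNA of the maternal copy and Igf2 a growth factor of the paternal copy. Igf2 was at 2.4, 1.0, 27.4 and 6.0 in Het 31, 53, 56 and 139, and at 53.0, 120.9, 42.4 and 54.4 in WT 45, 54, 57 and 65. Het 56 came nearest to the WT range, and WT 54 was the highest. The log2 difference was -3.38 (SE 0.89), or -4.12 without Het 56. H19 was at 2.4, 1.0, 15.0 and 1.9 in Het 31, 53, 56 and 139, and at 3.1, 25.5, 20.9 and 14.4 in WT 45, 54, 57 and 65. Here Het 56 lay within the WT range and WT 45 near the other Het libraries, so the genotypes overlapped (log2 difference -1.71, SE 0.90, or -2.36 without Het 56). On estimated reads Het 31, 53 and 139 had 3, 1 and 1, against 8 in WT 45. Het 56 was thus the highest Het library for both genes, and WT 54 the highest WT library.

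Grb10 is an adaptor that dampens signalling by the insulin and insulin-like growth factor receptors, and it lies on chromosome 11. It was at 6.1, 10.4, 8.7 and 13.4 in Het 31, 53, 56 and 139, and at 6.0, 32.2, 21.8 and 11 in WT 45, 54, 57 and 65. WT 45 was level with Het 31, and the genotypes overlapped (log2 difference -0.62, SE 0.54). The estimated reads were 8, 11, 7 and 12 in Het 31, 53, 56 and 139, against 13 in WT 45; with reads scaled between libraries the genotypes still overlapped and the difference was -1.11.

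Cdkn1c, the cell cycle inhibitor p57 made from the maternal copy, is known to keep blood stem cells at rest. It was at 12.5, 18.2, 5.5 and 46.7 in Het 31, 53, 56 and 139, and at 19.2, 28.6, 15.6 and 9.9 in WT 45, 54, 57 and 65. A Het library was the highest and another Het library the lowest of all 8. The log2 difference of -0.11 (SE 0.67) was the smallest of the 10 genes, and it turned to 0.35 without Het 56 and 0.13 without WT 54. Kcnq1ot1, the paternal antisense RNA whose transcription silences the Cdkn1c cluster on the same chromosome, was at 61.0, 106.4, 81.8 and 63.6 in Het 31, 53, 56 and 139, and at 272.6, 144.1, 165.9 and 234.1 in WT 45, 54, 57 and 65. The genotypes did not overlap, but the difference of -1.36 (SE 0.27) did not pass the limma test (adjusted p = 0.0697, and 0.0822 to 0.199 without each single library). Its protein-coding partner Kcnq1 was at 6.0 or less everywhere. Whether reads were counted by strand is not given in the sources used here, so reads of antisense partners could be shared.

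Ndn, or necdin, a growth-restraining protein of neurons made from the paternal copy on chromosome 7, was at 4.1, 1.0, 3.2 and 3.8 in Het 31, 53, 56 and 139, and at 6.8, 14.8, 26.4 and 12.9 in WT 45, 54, 57 and 65. The groups did not overlap, and the log2 difference was -1.96 (SE 0.49). WT 45 lay closest to the Het libraries in value, but Het 31 rests on an estimated 5 reads, against 15 in WT 45, and the difference on scaled reads was -2.65. The neighbours Magel2, Mkrn3 and Peg12 of the same paternal cluster, the Prader-Willi region, were at 4.8 or less in all libraries. Mest, a paternal gene on chromosome 6 for a protein with a hydrolase fold, was at 6.8, 4.1, 0 and 3.8 in Het 31, 53, 56 and 139, and at 124.6, 12.8, 12.3 and 15.0 in WT 45, 54, 57 and 65. WT 45 was far above the other WT libraries, which were close to each other. The log2 difference was -2.73 (SE 1.02), -1.95 without WT 45 and -2.10 without Het 56.

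Among the WT libraries the 10 genes did not follow a single order. WT 45 was the highest WT library for 5 of them (Meg3, Peg3, Dlk1, Mest and Plagl1), WT 54 for 4 (H19, Igf2, Cdkn1c and Grb10) and WT 57 for Ndn. WT 45 was at the same time the lowest WT library for H19, Grb10 and Ndn. Among the Het libraries, Het 139 was the highest for 5 genes, Het 56 for 3 (Meg3, H19 and Igf2) and Het 31 for 2. Their mean log2 level was 2.08, 1.68, 2.51 and 2.82 in Het 31, 53, 56 and 139, and 5.33, 4.72, 4.81 and 4.34 in WT 45, 54, 57 and 65.

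Most other imprinted genes with measurable transcripts did not pass the test between the genotypes. Of 45 further imprinted genes, 44 were in the table, 22 had a mean of at least 10, and 7 were listed at 0 in every library. By limma 2 of the 22 fell in Het and 0 rose (9.09%). An unadjusted p under 0.05 by limma was reached by 6 of the 22 and by 987 of all 12048 tested genes. Both called genes had a Het mean under 10 and so passed the filter through their WT values. Of all 354 tested genes with such a Het mean 12.4% were called, against 0.515% of all tested genes, and 215 had an unadjusted p under 0.05. The median log2 difference of the 22 was -0.11, against 0.01 over all tested genes. Of the genes expressed from the maternal copy, 1 of 11 fell (median -0.12), and of those expressed from the paternal copy also 1 of 11 (median -0.09).

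The genes that fell were Ppp1r9a and Nap1l5, both known from brain. Ppp1r9a, or neurabin, an actin-binding protein of synapses, was at 4.8, 3.2, 1.9 and 0 in Het 31, 53, 56 and 139, and at 40.6, 26.3, 32.2 and 32.6 in WT 45, 54, 57 and 65 (log2 difference -3.53, SE 0.64, limma adjusted p = 0.0459). Nap1l5, a relative of nucleosome assembly proteins, was at 0, 0, 3.2 and 4.8 in Het libraries and at 31.4, 31.4, 26.4 and 43.9 in WT libraries, in the same order (log2 difference -3.92, SE 0.73, limma adjusted p = 0.0491). The 4 WT libraries were close to each other in both genes and all lay above the Het libraries. The calls were near the threshold: with each library left out in turn, Ppp1r9a missed it every time (limma adjusted p from 0.0556 to 0.178), and Nap1l5 every time except without Het 56 (0.0384 to 0.179).

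Nnat and Zdbf2 varied most among WT libraries. Nnat, or neuronatin, a small membrane protein of brain and endocrine cells, was at 3.2 in Het 56, was listed at 0 in the other Het libraries, and was at 213.5, 9.1, 49.6 and 21.7 in WT 45, 54, 57 and 65. Its log2 difference of -4.79 (SE 0.97) did not pass the limma test (adjusted p = 0.0722), and it passed without Het 56 (adjusted p = 0.0453 by limma). Zdbf2, a paternal gene known to act through the hypothalamus on growth, was listed at 0 in all Het libraries and was at 107.9, 1.9, 17.1 and 2.5 in the WT libraries in the same order. Its adjusted p by limma was 0.416. Both genes were highest in WT 45 and next highest in WT 57.

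The imprinted genes with high counts in every library had small differences, Kcnq1ot1 apart. Igf2r, the receptor that removes Igf2 and is expressed from the maternal copy, was at 4068 ± 450 in Het and 4406 ± 421 in WT (SD, n = 4 each, log2 difference -0.12, limma adjusted p = 0.765). Gnas, the stimulatory G protein subunit, averaged 17275 ± 2710 in Het and 15868 ± 1195 in WT libraries (log2 difference 0.11, limma adjusted p = 0.796). Peg13, a noncoding RNA of the paternal copy, was at 3772 ± 226 in Het and 3472 ± 241 in WT (0.12, limma adjusted p = 0.717), and Trappc9, in which it lies, differed by -0.13 (limma adjusted p = 0.760). Impact, an inhibitor of the kinase Gcn2, differed by 0.23 and Blcap by -0.19, with limma adjusted p of 0.702 and 0.732. Split by a mean of 100 over all 8 libraries, a limit set after the values had been seen, 16 genes lay above it with a median of -0.07 and 0 calls by limma, 1 of them (Kcnq1ot1) with an unadjusted p under 0.05. The 6 below it had a median of -3.75 and 2 calls. Of all tested genes below that mean, 1.95% were called and the median was 0.18. Rian, Nnat, Zdbf2, Nap1l5 and Ppp1r9a had a Het mean under 10 and so passed the filter through their WT values, as did 354 tested genes in all, of which 351 were lower in Het.

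**Figure D3:**
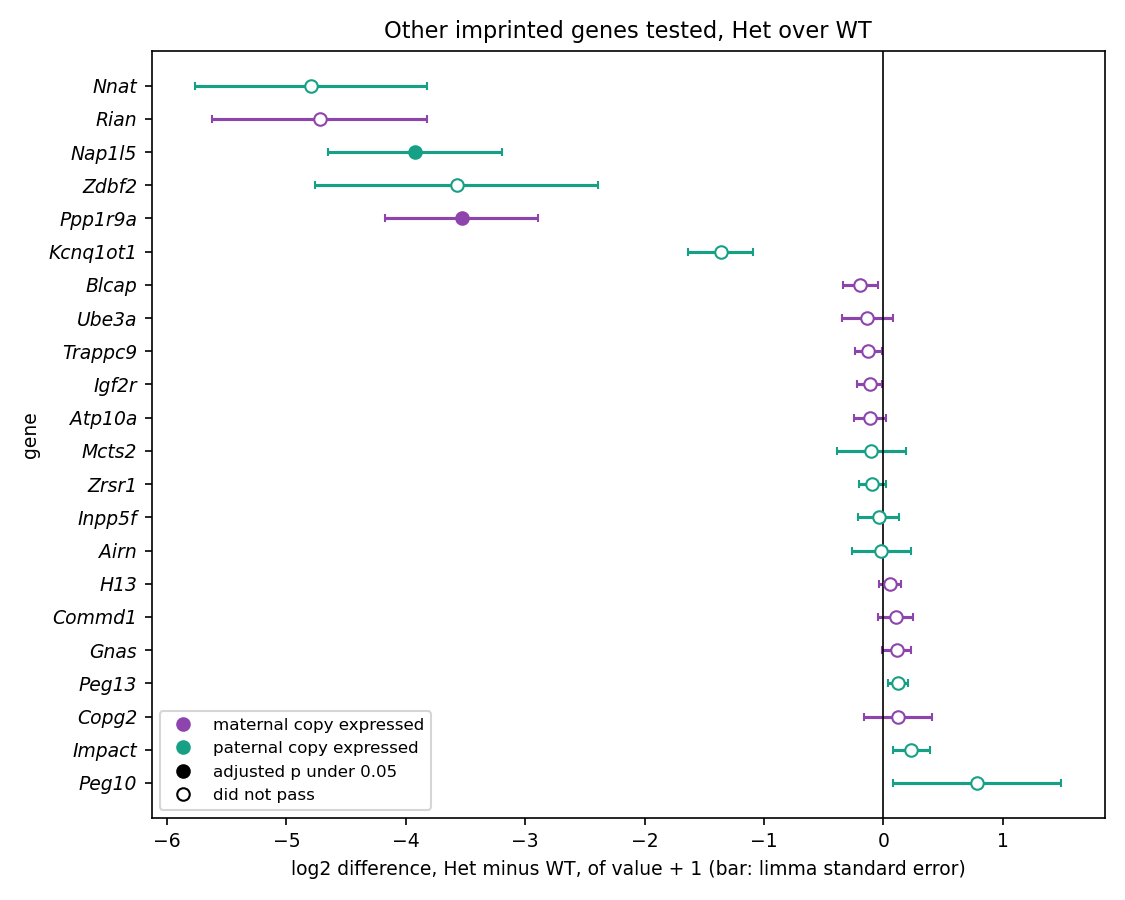
Log2 difference, Het minus WT, of the value plus 1 (horizontal axis) for the 22 further imprinted genes that were tested; points are limma estimates with standard errors, purple for the maternal and green for the paternal copy, filled where the adjusted p is under 0.05. Of the 22, 16 lie between -0.19 and 0.79, and Nap1l5 and Ppp1r9a are the filled points; the place of Zdbf2, listed at 0 in all Het libraries, depends on the added 1.

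Genes known to be imprinted mainly in placenta included 2 that were lower in Het, and both were known as lower from earlier results of these data. Dcn, a collagen-binding proteoglycan of connective tissue, fell to 24.8 ± 20.5 in Het, against 469.6 ± 166 in WT (SD, n = 4 each, log2 change -4.44, SE 0.49, limma adjusted p = 0.00536, and 0.118 without WT 45 and 54). Phactr2, a phosphatase and actin regulator near Plagl1 on chromosome 10, fell to 69.2 ± 9.27 in Het, against 153 ± 13.5 in WT (log2 change -1.14, SE 0.21, limma adjusted p = 0.0444), a call lost whichever library was left out (limma adjusted p 0.0561 to 0.152). They were 12.5% of the 16 tested genes of this list, against 0.515% of all tested genes. Since both were known as lower when the list was made, this share is read no further. The other 14 did not pass, and the list's median was -0.09. Among the 14 was Tspan32, a tetraspanin of blood cells, at 2936 ± 724 in Het and 2001 ± 248 in WT (0.53, limma adjusted p = 0.345).

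The machinery that keeps and reads imprints was expressed in part. Of its 18 listed genes 14 had a mean of at least 10 and were tested. Ctcfl, among the rest, was listed at 0 in all 8 libraries. Of the 14 tested genes none was called by limma and none had an unadjusted p under 0.05. Their median log2 difference was -0.00, with 7 genes lower and 7 higher in Het. Yy1, Tet3 and Dnmt3a had the smallest p. Yy1, a zinc finger factor that binds imprinted control regions, was at 3584 ± 121 in Het and 3203 ± 210 in WT (SD, n = 4 each, limma adjusted p = 0.642). Tet3, which oxidizes methylated cytosine, was at 7164 ± 1667 in Het and 8612 ± 910 in WT (limma adjusted p = 0.653). Dnmt3a, which sets new methylation, was at 2516 ± 424 in Het and 2969 ± 427 in WT (limma adjusted p = 0.660).

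Of the insulin-like growth factor axis, in which Igf2, Igf2r and Grb10 act, 1 of 19 tested genes fell and none rose (5.26%, against 0.515% of all tested genes; median log2 difference -0.22). Igfbp5, a secreted binding protein of these factors, was at 9.8, 12.2, 59.3 and 34.6 in Het 31, 53, 56 and 139, and at 395.3, 407.8, 393.5 and 160.6 in WT 45, 54, 57 and 65. The log2 change was -3.76 (SE 0.54, limma adjusted p = 0.0184), and Igfbp5 missed the threshold without Het 53, WT 54 or WT 57 (limma adjusted p 0.0540, 0.0897 and 0.0893). Igfbp6 and Irs2, next by p, were at 5.75 ± 4.06 and 745 ± 212 in Het and at 19.4 ± 9.36 and 976 ± 156 in WT (SD, n = 4 each, limma adjusted p = 0.529 and 0.641).

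The genes most like Meg3 over the 8 libraries were found by the root mean square difference between log2 profiles, each centred on its own mean. Meg3 and Peg3 were picked for the gap between their Het and WT values, which dominates these profiles. Genes low in Het and high in WT therefore rank near them, many past the filter through their WT values alone. The ranks are a description and support nothing. Nearest were Ugt8a, an enzyme of myelin lipid synthesis, at 0.48, Gnao1, a G protein subunit of neurons, at 0.52, and Dcn at 0.54, followed by Pclo, Edil3, S100b, Dner, Cadps, Igfbp5 and Snap25 at up to 0.82. The median over all tested genes was 2.76. Ugt8a was above 0 in a single Het library, Het 56, at 3.2, which is also the Het library highest in Meg3, and was at 68.4, 65.5, 33.2 and 23.9 in WT 45, 54, 57 and 65. Igf2 and Peg3 were at 1.03 and 1.06 from Meg3, ranks 27 and 29 of the tested genes.

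The genes most like Peg3 were others, and the same limit applies to them. Nearest was Cpe, an enzyme that trims peptide hormones, at 0.66, then Nnat at 0.77, followed by Slc7a14, Unc80, Chgb, Aqp4, Pcsk2, Sphkap, Rab3c and Rian at up to 0.97. Nnat and Rian are imprinted as well. Cpe was at 7.8, 6.0, 5.5 and 6.0 in Het 31, 53, 56 and 139, and at 339.2, 110.7, 101.4 and 91.1 in WT 45, 54, 57 and 65. Chgb, of hormone storage granules, was at 3.8 or less in Het libraries and at 360.6, 8.8, 184.7 and 71.8 in the WT libraries, with WT 45 highest, as for Peg3. The 10 nearest genes of Meg3 and the 10 nearest of Peg3 have no gene in common.

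Markers of some other cells also differed between the libraries, and their part in the differences of the imprinted genes was not tested. An anterior pituitary list, written after the hormone genes had been seen, was at a summed normalized read count of 43.1 to 88.2 in Het libraries, and at 15503.8, 81.9, 5393 and 1161.7 in WT 45, 54, 57 and 65. Of its 16 genes 9 were tested, and all 9 had a lower mean log2 level in Het. By limma 0 were called, and 6 had an unadjusted p under 0.05. Those with a Het mean under 10, such as Cga, Chga and Chgb, passed the filter through their WT values. Of all 354 such tested genes 351 were lower in Het, 215 had an unadjusted p under 0.05 by limma and 12.4% were called. Gh, growth hormone, was at 4842.1, 7.7, 1087.8 and 186.8 in WT 45, 54, 57 and 65, while no Het library exceeded 12.5, and Pomc, the precursor of corticotropin, was at 4149.9 in WT 45. The pituitary factor Pou1f1 was at 9.2 in WT 45 and no higher than 1.6 elsewhere. In Gh WT 45 was first and WT 57 next among WT libraries, and the same held for Meg3, Peg3, Dlk1, Nnat and Zdbf2. It did not hold for Mest, Plagl1 and Rian, where WT 65 came next after WT 45. Nor did it hold for H19, Igf2, Cdkn1c, Grb10 and Ndn, which were highest in a WT library other than WT 45. In WT 54, where Gh was at 7.7, Meg3, Peg3 and Igf2 were at 168.2, 39.5 and 120.9, above every Het library. What lies behind these orders was not tested.

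Markers of nerve and connective tissue differed too. Averaged over the neuron list, log2 levels were 2.08, 2.44, 4.73 and 3.03 in Het 31, 53, 56 and 139, and 4.68, 6.40, 6.40 and 7.04 in WT 45, 54, 57 and 65. All 12 tested genes of it were lower in Het and 2 were called, where 5787 of all 12048 tested genes were lower and 0.515% were called. Genes with a Het mean under 10, among them Elavl4 here and Col6a1 of the fibroblast and matrix list, passed the filter through their WT values. Of all 354 such tested genes 351 were lower in Het and 12.4% were called. The Schwann cell and glia list was at 3.33 to 4.90 in Het and 5.54 to 6.53 in WT libraries (9 of 11 lower, 3 called), and the fibroblast and matrix list at 3.71 to 5.32 in Het and 5.37 to 7.35 in WT libraries (11 of 12 lower, 1 called). Het 56 was the highest Het library in these 3 lists, as it was in Meg3, H19 and Igf2. Col1a1, the collagen chain of fibroblasts, was at 61.7, 73.6, 316.1 and 111.7 in Het 31, 53, 56 and 139, and at 667.4, 1139.4, 212.3 and 181.8 in WT 45, 54, 57 and 65. The 3 lists hold genes that were known to be lower in Het, so they are no independent evidence of direction.

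Markers of blood stem cells, in which imprinted genes are known to act, differed by less than the spread between libraries. Their log2 levels averaged 4.05 ± 0.33 in Het and 3.99 ± 0.33 in WT libraries (SD, n = 4 each), with 0 of 7 tested genes called by limma and 0 with an unadjusted p under 0.05. The endothelium list was at 4.93 ± 0.25 in Het and 4.60 ± 0.47 in WT libraries, the smooth muscle and pericyte list at 2.76 ± 0.28 and 3.02 ± 0.41, the skeletal muscle list at 3.52 ± 1.58 and 3.53 ± 1.05, and the adipocyte list at 2.53 ± 0.12 and 2.31 ± 0.33, each in Het and then WT. Epidermis markers were at 3.02 to 5.59 in Het and at 8.57, 8.08, 3.50 and 2.49 in WT 45, 54, 57 and 65, with 0 of 10 tested genes called by limma or at an unadjusted p under 0.05. B cell markers were at 9.52 ± 0.98 in Het and 9.04 ± 0.70 in WT, and myeloid markers at 7.40 ± 0.96 and 6.98 ± 0.39. Red cell and platelet markers were at 5.55 ± 0.40 and 4.87 ± 0.52. These lists had higher means in Het and no call by limma. An unadjusted p under 0.05 by limma was reached by 3 of 8 tested red cell and platelet genes. It was reached by 1 of 7 myeloid and 0 of 7 B cell genes, and by 987 of all 12048 tested genes. WT 57 and 65, with few epidermal transcripts, had Meg3 at 177.3 and 107.1, above every Het library. Both libraries also held neurofilament and pituitary transcripts, and the part of any tissue in the Meg3 values was not tested.

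**Figure D4:**
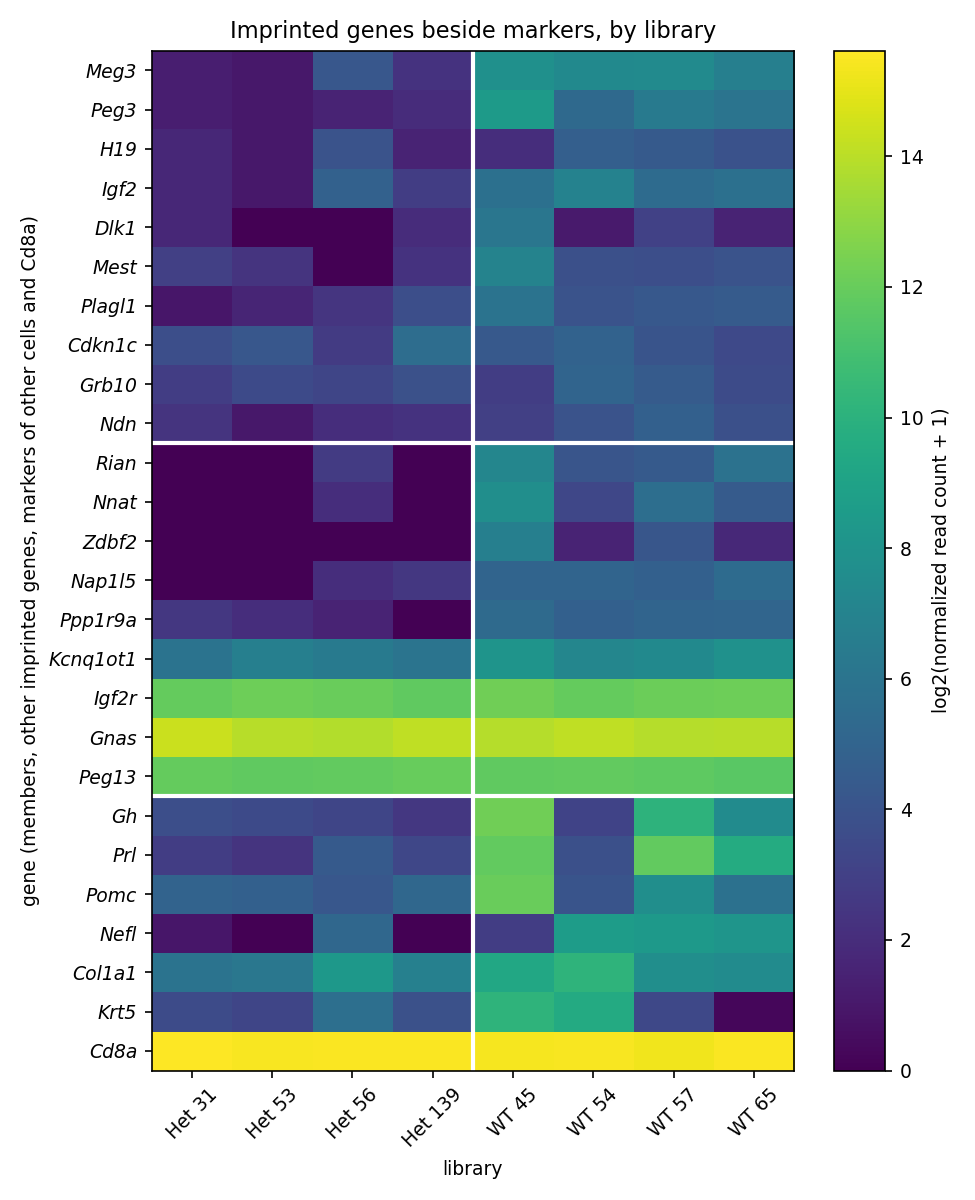
Colour gives log2 of the normalized read count plus 1 for single genes (rows) in the 4 Het libraries (left) and the 4 WT libraries (right); white lines part the 10 imprinted genes, 9 further imprinted genes, and markers of pituitary (Gh, Prl, Pomc), neuron (Nefl), fibroblast (Col1a1), epidermis (Krt5) and CD8 T cell (Cd8a). Gh and Pomc are brightest in WT 45, Prl is bright in WT 45 and WT 57, Nefl is dark in WT 45 and bright in WT 54, 57 and 65, and Igf2r, Gnas, Peg13 and Cd8a are even across all 8.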

How the data were processed

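Polyadenylated RNA of naive CD8 T cells was sequenced in 4 Het and 4 WT libraries, with a stranded kit per the labels' protocols. The authors deposited normalized read counts, a signal per gene with 1 decimal. Per the submitters' processing notes, CASAVA, TopHat2, HTSeq, DESeq and the build mm9 were used, with no roles given. How values were normalized is not given in the sources used here. All libraries had nearly the same sorted values and a total between 27488636.8 and 27489670, so totals do not show depth, and no count model was used. Genes with a mean of at least 10 (12048 genes) were tested with limma 3.58.1 in R 4.3.3 on log2(value + 1), with a trend, 2-sided, with Benjamini-Hochberg adjustment and a threshold of 0.05. Fold changes on that scale understate those of low genes. SEs of the 10 genes use the pooled SD of the log2 values. The fit was tested on simulated data. Named beside the 10 were called genes of the imprint-related lists, those with the smallest p in each (5 in the lists of further imprinted genes, 3 in the others), the 10 nearest profiles, the neighbours of Meg3 and Peg3, and leading markers; others were chosen after their values were seen. The members and lists were chosen with earlier results of these data known. Alternatives were the pseudocount, the filter, trimmed mean of M values (TMM) factors, array weights and leaving out libraries.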

Additional observations from a re-analysis of the deposited data

Results flagged for a closer look

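In 20 of the 121 groups of 4 values screened, 1 library stood apart from the other 3 by most of the spread of the group (a limit that chance passes in about 1 of 20 separate groups of normal values). These groups share libraries and hold genes picked for like profiles, so that rate need not apply to them. WT 45 was high in 10 groups. It had Peg3 at 359 (others 39.5 to 82.3), Dlk1 at 69.9 (1.2 to 7.1), Mest at 124.6 (12.3 to 15.0) and Plagl1 at 60.1 (14.8 to 21.7). It also had Zdbf2 at 107.9 (1.9 to 17.1), Usp29 at 13.5 (1.1 to 1.9), Zim1 at 6.0 (0 to 1.0), Cpe at 339.2 (91.1 to 110.7), Pcsk2, a hormone-processing enzyme, at 254.2 (11.6 to 47.6) and Pomc at 4149.9 (15.6 to 211).

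Het 56 was high in Meg3 at 17.9 (others 1.0 to 3.8) and H19 at 15.0 (1.0 to 2.4). It was also above 0, with the other Het libraries listed at 0, in Rian at 5.5, Nnat at 3.2, Ugt8a at 3.2 and Pcsk2 at 4.4, which stand for 2 to 4 reads.

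The remaining libraries far from the others were WT 54 in Igf2 at 120.9 (others 42.4 to 54.4), WT 65 in Igfbp5 at 160.6 (393.5 to 407.8) and in Yy1 at 3515.1 (3068.5 to 3136), and Het 31 in the mean log2 level of the paternally expressed further imprinted genes at 3.15 (3.00 to 3.01).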

How the results depend on the processing

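No paired analysis was possible because Het and WT libraries share no replicate number. The log2 differences of the 10 genes kept their sign in 136 of 140 alternatives, and the 4 exceptions were all of Cdkn1c (0.13 to 0.40). Scaling the estimated reads, an alternative added after seeing the data, gave -2.75 for Dlk1, -2.40 for H19 and -2.65 for Ndn. A pseudocount of 5 gave -3.87 for Peg3 and -1.26 for Ndn. All tested genes called numbered 62, against 123 without a filter, 14 at a mean of at least 50, and 11 to 91 without each library. Without WT 45 and 54 (also added later) 3 were called, and without WT 45 and Het 56 (likewise) 121. Of the further imprinted genes 2 were called, against 0 with a pseudocount of 0.5, 0 at a mean of at least 50, 4 with array weights (Nap1l5, Nnat, Ppp1r9a and Rian), 0 to 3 without each library and 0 without WT 45 and 54; an unadjusted p under 0.05 was reached by 1 at a mean of at least 50 and by 5 to 7 in the others. Without WT 45 and 54, 0 of the 10 genes were called by limma. Genes without overlap numbered 602 (257 higher and 345 lower in Het), against 1010 without a filter, 334 at a mean of at least 50, 753 to 1649 without each library, 1300 without WT 45 and 54, and 1957 without WT 45 and Het 56; TMM factors gave 184 higher and 440 lower. The causes were not tested, beyond fewer genes or libraries. Most Het values of Meg3 and Peg3 rest on an estimated 1 to 3 reads, which limits how precisely they are known.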

Other observations

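The RefSeq neighbours of Mest include Cpa1, a digestive carboxypeptidase of the exocrine pancreas, named here after its values were seen. Cpa1 was at 25.1, 5449.9, 298.5 and 6211.8 in Het 31, 53, 56 and 139, and at 0.8, 2057.5, 3260.9 and 0.7 in WT 45, 54, 57 and 65. Its order of libraries was not that of Mest, which was highest in WT 45, where Cpa1 was at 0.8. Copg2, on the other side of Mest and overlapping it tail to tail, was at 330.8 to 1002.5 in Het and 476.6 to 690.9 in WT libraries.

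Igf2as, the antisense gene of Igf2, was at 6.8, 3.2, 19.2 and 0 in Het 31, 53, 56 and 139, and at 0.2, 0.2, 3.3 and 1.9 in WT 45, 54, 57 and 65. Next to Grb10 and expressed at low levels, Cobl, an actin-nucleating protein, was at 4.1, 4.1, 1.9 and 0 in Het libraries and at 30.2, 5.7, 17.1 and 11.6 in WT libraries, in the same order, without overlap. Its neighbour Ddc, which makes dopamine and serotonin from their precursors and is imprinted in mouse heart, was at 223.1 to 313.3 in Het and 210 to 299.9 in WT libraries.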
